A study of Homo sapiens with 6 samples.

Results

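Long intergenic non-coding RNAs with a LINC symbol were described in MV4;11 cells, a human acute myeloid leukemia line with the FLT3-ITD and MLL-AF4 lesions, after exposure to flavokawain A (FKA). Rows of the gene count table whose symbol is LINC followed by digits were taken if their mean was at least 50 raw counts over the 6 libraries, which left 89 of 701 LINC rows (12.7%) in a table of 21857 genes. The transcripts were thus chosen by their level over all 6 libraries. For 8 transcripts the group mean reached 50 only in FKA libraries, and for 8 only in controls, so their inclusion depended on their difference. In all, 3 libraries came from cells given FKA, a chalcone found in kava, at 10 µg/ml for 48 h, and 3 control libraries came from the same line without FKA. All 6 share the line's genotype, and the labels give no vehicle for the controls. Each of the 3 batch numbers in the labels holds 1 FKA and 1 control library, and nothing in the labels says that the replicates were separate cultures, so p-values measure the spread between these libraries.

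A long non-coding RNA is transcribed, often capped, spliced and polyadenylated, and carries no long open reading frame. LINC symbols are given to such genes when they lie between protein-coding genes and have no better name, so the group is held together by position and not by function. Many of these transcripts are kept low because the nuclear RNA exosome and its adaptors degrade them, and because the Integrator complex ends their transcription early, and many are expressed in few cell types.

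Library totals ran from 29971171 to 36362421 counts. The myeloid markers were present in all libraries, with a summed level of 2043 to 2157 CPM (counts scaled to the library size) in FKA libraries and 1972 to 2078 CPM in controls (10 of 10 genes listed). CEBPA, PTPRC and FLT3 made up most of that sum, and single genes moved apart. MPO and HOXA9 were called lower (log2 fold changes, FKA over control, -5.36 and -0.52), and CSF1R and MEIS1 higher (3.60 and 0.58). CD33, CEBPA, FLT3, LYZ, PTPRC and SPI1 were not called. The 10 stromal markers summed to 1.21, 53.0 and 49.0 CPM in FKA libraries 1 to 3, against 10.7, 8.997 and 0.803 CPM in control libraries 1 to 3. FKA libraries 2 and 3 thus stood apart from the other 4 in collagen and matrix transcripts, with COL1A1 at 13.03 and 12.92 CPM against 0.342 CPM in FKA library 1. Among markers of other cells, the T and NK list (2 of 5 genes in the table, nearly all from NKG7) summed to 9.29 to 9.67 CPM in FKA libraries and 21.3 to 24.3 CPM in controls, and the B list (3 of 4 genes, nearly all from PAX5) to 7.30 to 9.64 CPM in FKA libraries and 20.6 to 27.3 CPM in controls. Epithelial markers (5 of 5 genes) summed to 12.9 to 18.9 CPM in FKA libraries and 19.2 to 21.8 CPM in controls, and no listed erythroid gene is in the table used here. No marker in the table was at 0 in all 6 libraries. In such bulk libraries, fewer cells of a kind and less RNA per cell cannot be told apart.

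The start regions of 6 transcripts that the results turn on are shown because they belong to members among the largest rises (LINC02641, LINC00672, LINC01176) and the largest falls (LINC02806, LINC00565, LINC01572). Each is a RefSeq window (GRCh38.p14) of 300 bases, from 250 before to 50 after the annotated start, written 5′ to 3′ on the strand of the gene. They lie at chr10:123482717-123483016 (plus strand), chr17:38925364-38925663 (plus), chr7:30390635-30390934 (plus), chr1:148279018-148279317 (plus), chr13:113928942-113929241 (minus) and chr16:72664921-72665220 (minus), in the order given above. Capitals mark matches, on either strand, to the CCAAT box, the GC box with the letters GGGCGG, the TATA box with the letters TATAAA, the antioxidant element core TGACNNNGC and the ETS core CCGGAAG.
LINC02641: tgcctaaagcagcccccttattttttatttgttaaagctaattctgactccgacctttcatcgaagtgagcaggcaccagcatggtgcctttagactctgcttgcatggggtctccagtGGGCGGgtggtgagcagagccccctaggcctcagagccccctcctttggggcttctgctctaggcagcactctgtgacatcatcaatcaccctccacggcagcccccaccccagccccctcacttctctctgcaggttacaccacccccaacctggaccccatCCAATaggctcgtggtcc
LINC00672: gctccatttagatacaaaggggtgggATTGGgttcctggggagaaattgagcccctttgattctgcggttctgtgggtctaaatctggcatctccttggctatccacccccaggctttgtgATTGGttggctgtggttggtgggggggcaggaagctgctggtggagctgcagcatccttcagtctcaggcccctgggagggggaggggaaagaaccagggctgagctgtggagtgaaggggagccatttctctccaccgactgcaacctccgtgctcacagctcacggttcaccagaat
LINC01176: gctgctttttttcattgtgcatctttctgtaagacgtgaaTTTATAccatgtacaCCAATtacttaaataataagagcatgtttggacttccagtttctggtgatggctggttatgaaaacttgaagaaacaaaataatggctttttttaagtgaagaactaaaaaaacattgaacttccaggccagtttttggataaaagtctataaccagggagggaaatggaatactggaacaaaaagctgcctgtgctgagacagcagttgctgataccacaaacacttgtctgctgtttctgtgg
LINC02806: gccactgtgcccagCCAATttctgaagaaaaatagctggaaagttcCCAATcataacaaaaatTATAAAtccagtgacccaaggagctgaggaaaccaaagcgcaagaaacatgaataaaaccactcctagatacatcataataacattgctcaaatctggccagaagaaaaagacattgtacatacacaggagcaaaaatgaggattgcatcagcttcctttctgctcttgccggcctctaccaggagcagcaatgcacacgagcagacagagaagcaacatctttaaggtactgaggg
LINC00565: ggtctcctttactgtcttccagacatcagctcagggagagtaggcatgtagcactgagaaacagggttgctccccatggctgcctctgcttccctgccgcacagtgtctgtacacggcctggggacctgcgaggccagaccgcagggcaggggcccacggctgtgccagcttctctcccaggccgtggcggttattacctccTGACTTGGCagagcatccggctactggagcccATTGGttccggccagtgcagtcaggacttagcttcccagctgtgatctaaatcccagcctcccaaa
LINC01572: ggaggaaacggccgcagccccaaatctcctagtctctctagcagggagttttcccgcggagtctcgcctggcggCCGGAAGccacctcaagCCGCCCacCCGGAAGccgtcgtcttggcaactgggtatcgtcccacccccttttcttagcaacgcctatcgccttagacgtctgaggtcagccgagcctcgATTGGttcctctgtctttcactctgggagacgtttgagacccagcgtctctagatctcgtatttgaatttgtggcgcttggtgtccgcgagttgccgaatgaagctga

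All 6 windows hold at least 1 CCAAT on either strand, and LINC00672 and LINC02806 hold 2 each. CCAAT is common in such windows, at 35.7% of 27305 RefSeq windows and 50% of the 60 LINC windows at hand. TATAAA is in the windows of LINC01176 (on the other strand) and LINC02806, in both far upstream of the annotated start. The LINC01572 window holds 2 ETS cores and a GC box. The ratio of observed to expected CpG was 0.946 in the LINC01572 window and between 0.0972 and 0.331 in the other 5.

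After FKA, more LINC transcripts were higher than lower. Of the 89 transcripts, 35 rose (39.3%), 16 fell (18%) and 38 were not called in edgeR's quasi-likelihood test at a Benjamini-Hochberg adjusted p below 0.05 over all 13531 tested genes. All 89 were among the tested genes, of which 29.3% were called higher and 30.5% lower (59.8% in either direction), while 57.3% of the LINC transcripts were called. The median log2 fold change, FKA over control, was 0.11 for the LINC transcripts and 0.01 for all tested genes. A change of at least 2-fold was called upward for 19 transcripts (21.3%, against 11.9% of all tested genes) and downward for 9 (10.1%, against 13.7%). The split depends on scaling. With library totals in place of TMM factors, the median of all tested genes moved up by 0.157 on the log2 scale, 38 LINC transcripts were called higher and 10 lower, and over all genes 4993 were higher (36.9%) and 3282 lower (24.3%). Of the 38 not called, 7 had an unadjusted p below 0.05. With FKA libraries 2 and 3 left out, 17 transcripts were called higher (14.1% of all tested genes were) and 11 lower (18.1% of all). That comparison leaves a single FKA library, which is assumed to vary as the controls do.

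**Figure D1:**
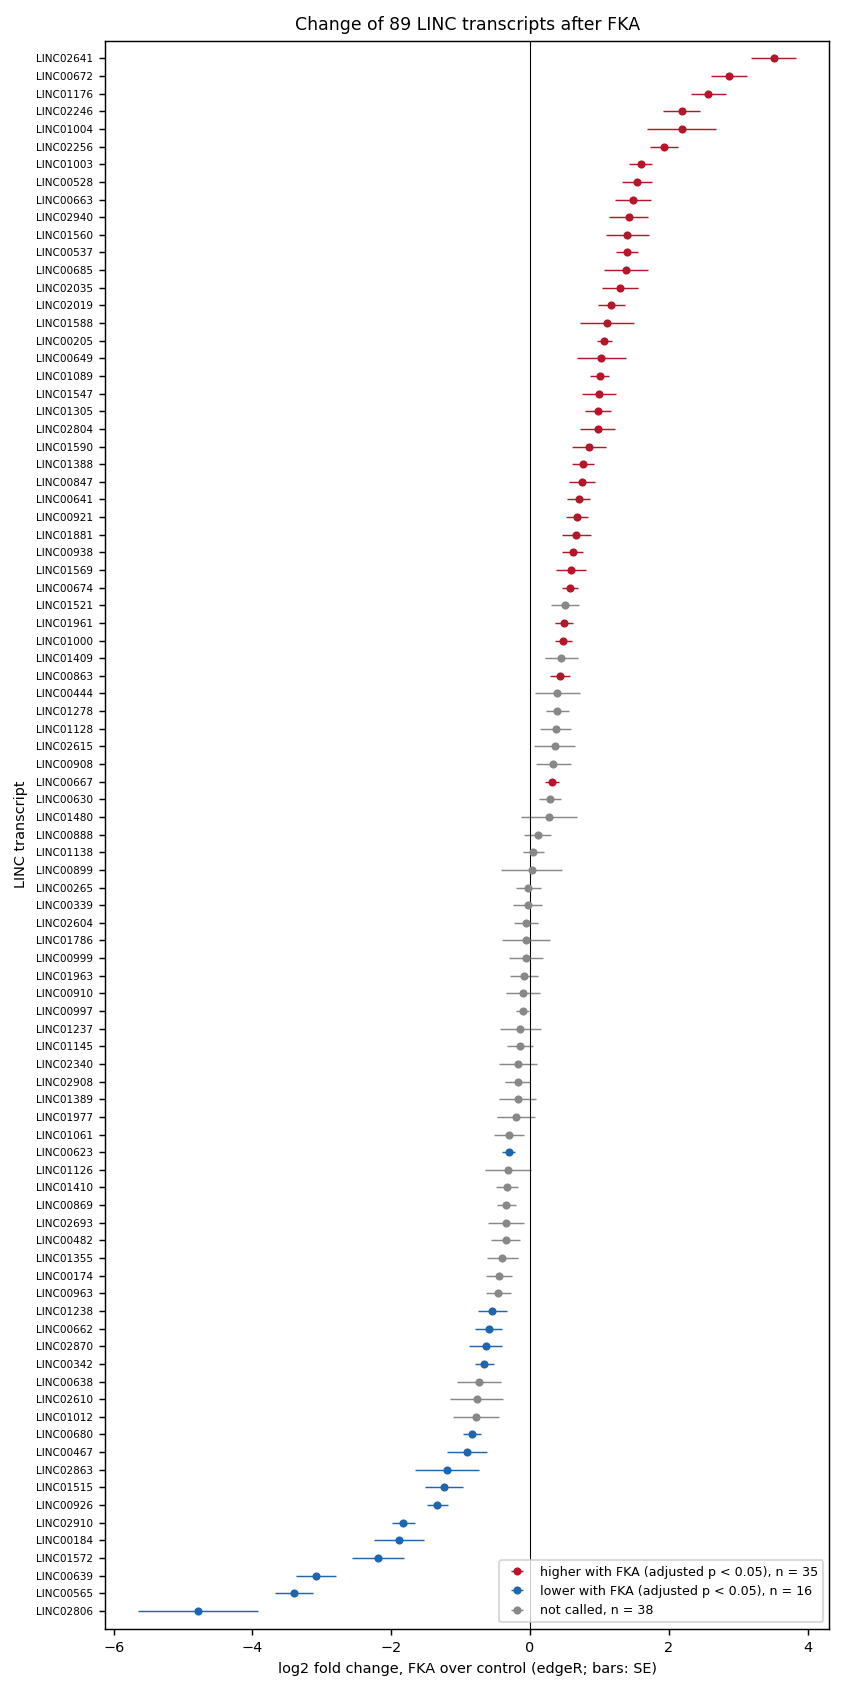
Log2 fold change (FKA over control, x axis) with its standard error (bars) for each of the 89 LINC transcripts (rows), from edgeR on 3 FKA and 3 control libraries. The 35 transcripts called higher run from 0.32 to 3.51, the 16 called lower from -4.78 to -0.31, and the 38 not called from -0.78 to 0.51.

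The 3 FKA libraries lay above all controls for 39 transcripts (43.8%, against 33.7% of all tested genes) and below all controls for 19 (21.3%, against 33.6%). Of these 58 transcripts, 9 were not called. Of the 51 called transcripts, LINC02863 and LINC02870 overlapped between the groups. The call was kept by 38 of the 51 whichever single library was left out, and was lost at least once by LINC00467, LINC00623, LINC00649, LINC00662, LINC00667, LINC00863, LINC01238, LINC01569, LINC01588, LINC01590, LINC01881, LINC02863 and LINC02870. Within each of the 3 batches, all 51 called transcripts differed in the direction of their call. For those whose groups did not overlap, that separation fixes the direction in every batch, so it is no further support. The median difference over the 89 transcripts was 0.28, 0.16 and 0.19 on the log2(CPM + 0.1) scale in batches 1 to 3. Summed over all 89, the level was 1281, 1381 and 1204 CPM in FKA libraries 1 to 3, against 1010, 1097 and 997 CPM in control libraries 1 to 3. The groups did not overlap. Their means were 1289 ± 88.3 CPM with FKA and 1035 ± 54.6 CPM in controls (SD, n = 3 each), with an exact two-sided permutation p of 0.1, the smallest that 3 against 3 can give. Much of this difference lay in 3 abundant transcripts. Mean CPM with FKA and in controls was 170.8 and 122.6 for LINC01000, 151.2 and 88.9 for LINC01388, and 126.2 and 84.6 for LINC00674. Without LINC01000 alone, the log2 ratio of the sums was 0.29, against 0.32 for all 89. The sum without all 3 was not computed. It also holds the transcripts whose inclusion depended on their difference, so it does not describe a shift shared by all 89.

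Since a mean over all libraries can be reached through the higher group alone, the transcripts were also counted by group mean. Both group means were at least 50 counts for 73 transcripts, of which 27 rose, 10 fell and 36 were not called. A further 8 reached 50 only in FKA libraries and all were called higher. They are LINC00528, LINC00672, LINC00685, LINC01176, LINC01560, LINC01588, LINC02035 and LINC02940. Another 8 reached it only in controls, of which 6 were called lower (LINC00467, LINC00565, LINC00639, LINC01572, LINC02806 and LINC02863). These 16 had to differ to be included, so their calls are a description. Just inside the limit were LINC01237 (mean 53.5 counts), LINC01126 (54.3) and LINC01786 (54.5), and just outside were LINC02449 (48.3), LINC01372 (46.7) and LINC01686 (45.7). LINC02449, the nearest row outside, was called lower (log2 fold change -1.69), and the others on both sides were not called. Another 83 LINC rows under the limit could be tested, and 23 of them were called higher and 18 lower (49.4% in either direction). Of all tested genes, 29.3% were called higher and 30.5% lower (59.8% in either direction). Rises thus outnumbered falls by less in these rows than among the chosen transcripts.

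LINC02641 showed the largest rise. It had 18.5, 21.6 and 16.2 CPM in FKA libraries 1 to 3, against 2.32, 1.84 and 0.773 CPM in control libraries 1 to 3. Every FKA library was several times above every control, and the log2 fold change was 3.51 ± 0.33 (SE; edgeR adjusted p = 4.27e-05). In RefSeq the transcript lies beside BUB3, a protein of the mitotic spindle checkpoint, which moved the opposite way. BUB3 had 239, 248 and 215 CPM with FKA, against 408, 572 and 589 CPM in controls, a log2 fold change of -1.16 ± 0.15 (edgeR adjusted p = 0.000191).

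LINC00672 lies next to LASP1, which encodes an actin-binding protein, and RefSeq now lists it as LASP1NB with a coding biotype. Its level was 8.20, 9.47 and 9.58 CPM in FKA libraries, against 1.32, 1.59 and 0.803 CPM in controls (log2 fold change 2.87 ± 0.26, edgeR adjusted p = 3.36e-05). The groups were far apart for LINC00672 while LASP1 itself was not called, at 312, 361 and 342 CPM with FKA, against 253, 376 and 324 CPM in controls. LINC01176, between the ubiquitin ligase gene ZNRF2 and the innate sensor gene NOD1, had 5.56, 5.31 and 4.55 CPM with FKA, against 0.611, 0.950 and 1.01 CPM in controls. The 3 FKA libraries were tightly grouped above the controls, with a log2 fold change of 2.57 ± 0.26 (edgeR adjusted p = 6.05e-05). ZNRF2 was also called higher (log2 fold change 0.63 ± 0.17, edgeR adjusted p = 0.0114), and NOD1 was not called.

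LINC02246, listed by RefSeq as ASMER1, a name from work on human adipocytes, lies between SAMSN1 and NRIP1. It reached 23.3, 33.5 and 23.2 CPM with FKA, against 5.02, 8.41 and 4.14 CPM in controls, a log2 fold change of 2.18 ± 0.27 (edgeR adjusted p = 0.000175). Library 2 was the highest of its group on both sides. SAMSN1, a signalling adaptor of blood cells, was called lower (log2 fold change -1.23 ± 0.18, edgeR adjusted p = 0.000454). LINC01004 had the widest spread of the large rises, with 4.72, 20.9 and 15.5 CPM in FKA libraries 1 to 3, against 1.83, 3.21 and 3.96 CPM in controls. FKA library 1 lay just above the highest control and FKA libraries 2 and 3 far above it, the same libraries that carried the stromal transcripts. The log2 fold change was 2.18 ± 0.50 (edgeR adjusted p = 0.00467) with all libraries, and 0.64 (edgeR adjusted p = 0.275) without FKA libraries 2 and 3. What part the stromal transcripts have in it was not tested.

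LINC02256 had 25.8, 25.3 and 17.1 CPM with FKA, against 5.18, 7.01 and 5.62 CPM in controls (log2 fold change 1.93 ± 0.20, edgeR adjusted p = 6.98e-05). It lies in a stretch of chromosome 15 that holds copies of the golgin gene GOLGA8, and its longest stretch of at least 98% identity to another gene's transcript was 307 bases, so reads can be shared with those copies and its value is uncertain. The adjacent GOLGA8N was called higher as well, at 120, 122 and 97.0 CPM with FKA, against 59.2, 52.3 and 47.1 CPM in controls. LINC01003, between the histone methyltransferase gene KMT2C and the DNA repair gene XRCC2, had 10.9, 13.4 and 10.6 CPM with FKA, against 4.02, 3.63 and 3.87 CPM in controls. The control libraries were nearly equal and all FKA libraries stood above them (log2 fold change 1.60 ± 0.17, edgeR adjusted p = 7.32e-05). XRCC2 fell to 2.14, 2.78 and 1.35 CPM with FKA, against 49.5, 49.1 and 49.4 CPM in controls (log2 fold change -4.56 ± 0.22, edgeR adjusted p = 2.36e-06).

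The next 5 rises were smaller and all had groups that did not overlap. LINC00528 had 4.13, 4.00 and 4.60 CPM with FKA, against 1.29, 1.68 and 1.40 CPM in controls, and its neighbours BID, a death-promoting member of the BCL2 family, and MICAL3 were both called lower (log2 fold changes -0.60 ± 0.11 and -0.61 ± 0.11). LINC00663 averaged 4.25 ± 0.43 CPM with FKA and 1.51 ± 0.42 CPM in controls (SD, n = 3 each). LINC02940 lies between ETS2, a transcription factor gene, and PSMG1, which encodes a proteasome assembly chaperone. It averaged 2.68 ± 0.65 CPM with FKA and 0.996 ± 0.017 CPM in controls, while ETS2 and PSMG1 were called lower. LINC01560, whose span overlaps that of the zinc finger gene ZNF41, averaged 2.42 ± 0.65 CPM with FKA and 0.912 ± 0.199 CPM in controls. LINC00537 averaged 14.6 ± 1.86 CPM with FKA and 5.53 ± 0.30 CPM in controls. The log2 fold changes of the 5 ran from 1.40 to 1.54, with edgeR adjusted p between 0.000102 and 0.00424. For LINC02940 and LINC01560 the calls were lost without FKA libraries 2 and 3 (log2 fold changes 0.94 and 0.92).

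**Figure D2:**
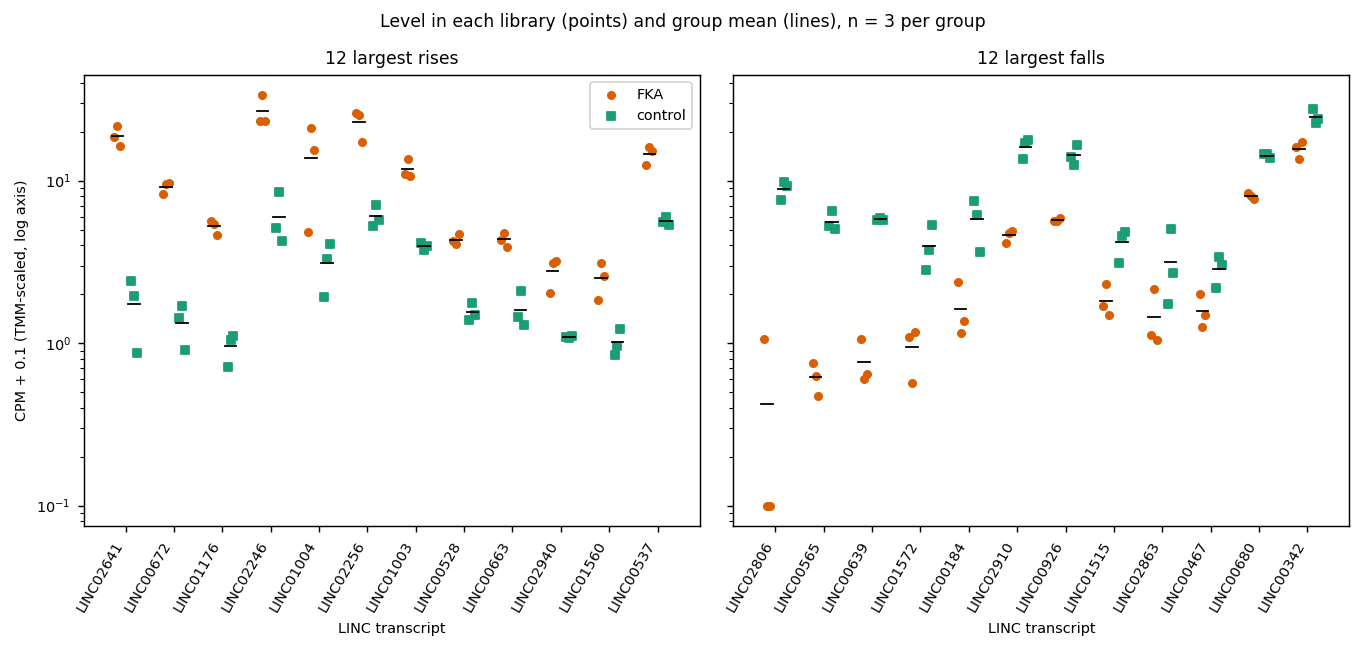
TMM-scaled CPM plus 0.1 (y axis, log scale) of the 12 transcripts with the largest called rise and the 12 with the largest called fall (x axis) in each FKA library (circles) and control library (squares), with group means as lines (n = 3 each). FKA and control libraries are separate for all but LINC02863, and LINC02806 is at 0 counts in FKA libraries 2 and 3.

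Among the falls, LINC02806 on chromosome 1 was reduced most. It had 31, 0 and 0 counts in FKA libraries 1 to 3, against 234, 346 and 307 counts in control libraries 1 to 3. On the CPM scale these were 0.963, 0 and 0 with FKA, against 7.53, 9.67 and 9.13 in controls, and a count of 0 allows up to 0.0938 and 0.0863 CPM in FKA libraries 2 and 3 (3 counts per library, counting error only). FKA library 1 thus differed from the other 2 and still lay well below every control. The fitted log2 fold change was -4.78 ± 0.87 (edgeR adjusted p = 0.00139), a size that depends on the prior count, and the call was lost in DESeq2 (adjusted p = 0.0583). The flanking NBPF11, of a gene family with many similar copies, was called higher (log2 fold change 0.91 ± 0.11).

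LINC00565 is listed by RefSeq as SWINGN, a transcript described in other human cancer cells as a partner of the SWI/SNF chromatin remodelling complex at the GAS6 gene. It fell to 0.652, 0.531 and 0.374 CPM with FKA, against 5.18, 6.40 and 4.91 CPM in controls (log2 fold change -3.40 ± 0.28, edgeR adjusted p = 2.12e-05). GAS6, which encodes a ligand of the TAM receptor kinases, had 67.2, 71.5 and 121 CPM with FKA, against 73.8, 58.2 and 71.5 CPM in controls and was not called (log2 fold change 0.35 ± 0.21, edgeR adjusted p = 0.179). The groups were wholly separate for LINC00565 and overlapped for GAS6. The coding span of C13orf46 overlaps LINC00565 in RefSeq, and it fell too, to 0.590, 0.656 and 0.547 CPM with FKA, against 2.77, 2.74 and 2.56 CPM in controls. With no use of strand stated, reads of these overlapping genes cannot be told apart.

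LINC00639 had 0.963, 0.500 and 0.547 CPM with FKA, against 5.63, 5.81 and 5.65 CPM in controls, with hardly any spread among controls (log2 fold change -3.08 ± 0.28, edgeR adjusted p = 3.69e-05). LINC01572 had 0.994, 0.469 and 1.06 CPM with FKA, against 2.73, 3.63 and 5.24 CPM in controls (log2 fold change -2.19 ± 0.37, edgeR adjusted p = 0.000967). Both coding neighbours of LINC01572 fell with it, PMFBP1 with a log2 fold change of -1.82 ± 0.25 and the homeobox factor gene ZFHX3 with -1.11 ± 0.40, although ZFHX3 was below 1.2 CPM in every library. LINC00184 had 2.27, 1.06 and 1.27 CPM with FKA, against 7.40, 6.09 and 3.54 CPM in controls (log2 fold change -1.89 ± 0.36, edgeR adjusted p = 0.00191). Its neighbours are TOMM20, a receptor of the mitochondrial protein import machinery, and the corepressor gene IRF2BP2, and both were called lower (log2 fold changes -1.09 ± 0.16 and -0.46 ± 0.12). Without FKA libraries 2 and 3 the call of LINC00184 was lost (log2 fold change -1.33, edgeR adjusted p = 0.0552).

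LINC02910 had 4.01, 4.66 and 4.83 CPM with FKA, against 13.4, 16.9 and 17.6 CPM in controls (log2 fold change -1.83 ± 0.17, edgeR adjusted p = 3.69e-05). The adjacent cadherin gene CDH26 moved the opposite way, to 2.30, 3.34 and 3.37 CPM with FKA, against 0.676, 0.615 and 0.387 CPM in controls (log2 fold change 2.42 ± 0.32). LINC00926, described in breast cancer cells as a FOXO1 target, had 5.56, 5.56 and 5.78 CPM with FKA, against 13.9, 12.4 and 16.4 CPM in controls. All FKA libraries were nearly equal and lay below every control (log2 fold change -1.33 ± 0.16, edgeR adjusted p = 0.000129). LINC01515 averaged 1.73 ± 0.44 CPM with FKA and 4.08 ± 0.92 CPM in controls (SD, n = 3 each), and the next gene, REEP3 of the endoplasmic reticulum, was called higher (log2 fold change 0.87 ± 0.17).

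The remaining named falls were smaller. LINC02863, beside the interferon regulatory factor gene IRF1, had 1.03, 2.06 and 0.949 CPM with FKA, against 1.64, 4.97 and 2.62 CPM in controls. Its groups overlapped and its call (log2 fold change -1.20 ± 0.46, edgeR adjusted p = 0.0468) was lost without any 1 of FKA library 1, FKA library 3, control library 2 or control library 3, where it ranged from -1.31 to -0.67. LINC00467, which is repressed by MYCN in neuroblastoma cells, averaged 1.48 ± 0.38 CPM with FKA and 2.77 ± 0.61 CPM in controls (log2 fold change -0.91 ± 0.29, edgeR adjusted p = 0.0236), a call that was lost without FKA library 2, FKA library 3, control library 2 or control library 3 (-0.87 to -0.76). LINC00680 averaged 7.93 ± 0.33 CPM with FKA and 14.2 ± 0.49 CPM in controls, and its neighbour PRIM2, a subunit of the DNA primase, was called lower too (log2 fold changes -0.84 ± 0.13 and -0.58). LINC00342 averaged 15.6 ± 1.89 CPM with FKA and 24.7 ± 2.60 CPM in controls (log2 fold change -0.66 ± 0.14), and shares up to 654 bases of at least 98% identity with other transcripts, so its value is uncertain.

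Per length, most of the LINC transcripts were scarce. The mean deposited FPKM (fragments per kilobase, scaled to the library total) ran from 0.152 to 49.0 with a median of 2.03, against a median of 5.87 over all tested genes. In all, 7 transcripts had at least 10 FPKM and 23 had less than 1. FPKM carry no TMM factor, while the log2 fold changes and calls given beside them do, so the 2 scales need not match. Library totals in place of TMM factors moved the median of all tested genes up by 0.157 on the log2 scale. LINC02870 was the most abundant per length, with 29.04, 57.8 and 35.8 FPKM in FKA libraries 1 to 3, against 46.1, 72.2 and 53.0 FPKM in control libraries 1 to 3. Library 2 was highest on both sides, the groups overlapped, and the call of a fall (log2 fold change -0.64 ± 0.24, edgeR adjusted p = 0.0445) was lost under 9 of the 16 other settings, among them the omission of FKA library 1, FKA library 3, control library 2 or control library 3 (-0.69 to -0.45).

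Next in order came LINC01388, with 24.9, 29.3 and 22.6 FPKM with FKA, against 10.1, 16.5 and 13.96 FPKM in controls (log2 fold change 0.77 ± 0.16, edgeR adjusted p = 0.00264). LINC00667 (17.9 ± 1.54 FPKM with FKA, 12.9 ± 1.60 in controls), LINC01000 (17.6 ± 1.505 with FKA, 11.3 ± 1.55 in controls) and LINC01089 (19.8 ± 2.99 with FKA, 8.83 ± 0.997 in controls) followed, and within FKA libraries the levels of these 3 did not differ beyond their spread. All 3 were called higher. LINC01089, known as LIMT, a transcript repressed by epidermal growth factor in human mammary cells, had the largest change of them, a log2 fold change of 1.00 ± 0.14 (edgeR adjusted p = 3e-04). Its span overlaps that of SETD1B in RefSeq and that of RHOF on the same strand in GENCODE 29, so reads can be shared. For LINC00667 the change was 0.32 ± 0.10 (edgeR adjusted p = 0.0211), and its call was lost without FKA library 2 (0.26) or control library 3 (0.27). LINC00674 was called higher, at 11.9 ± 1.58 FPKM with FKA and 7.17 ± 0.90 FPKM in controls. LINC00623 was called lower, at 8.29 ± 0.27 FPKM with FKA and 9.18 ± 0.49 FPKM in controls, but its call (log2 fold change -0.31 ± 0.10, edgeR adjusted p = 0.0208) was lost without FKA library 2, FKA library 3 or control library 3 (-0.29 to -0.27), and also with upper-quartile factors (-0.24), library totals (-0.15) and limma on log2 FPKM (-0.13 and -0.14). By raw counts, LINC01000, LINC01388 and LINC00674 together held 32% of all counts of the 89 transcripts.

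Several abundant transcripts were not called. LINC01138, studied in human liver cancer, had 10.6, 13.6 and 9.27 FPKM with FKA, against 9.25, 10.1 and 9.59 FPKM in controls (log2 fold change 0.05 ± 0.14). LINC00963, studied in prostate cancer cells, had 7.65, 9.89 and 6.97 FPKM with FKA, against 7.95, 12.7 and 9.60 FPKM in controls (log2 fold change -0.46 ± 0.18, edgeR adjusted p = 0.0541). Its groups overlapped, and with the batch as a block, where 61.3% of all tested genes were called, its edgeR adjusted p was 0.0145. LINC00869 averaged 4.72 ± 0.74 FPKM with FKA and 5.36 ± 0.61 FPKM in controls (log2 fold change -0.34 ± 0.13, edgeR adjusted p = 0.0534, or 0.0175 with the block). LINC00888 is listed by RefSeq as the small nucleolar RNA host SNHG33. LINC00997 and LINC00888 differed by -0.11 ± 0.10 and 0.11 ± 0.20 on the log2 scale, within their error. LINC00623 and LINC01138 each share stretches of at least 98% identity with LINC00869 and with LINC01145, so how their reads were divided is uncertain.

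**Figure D3:**
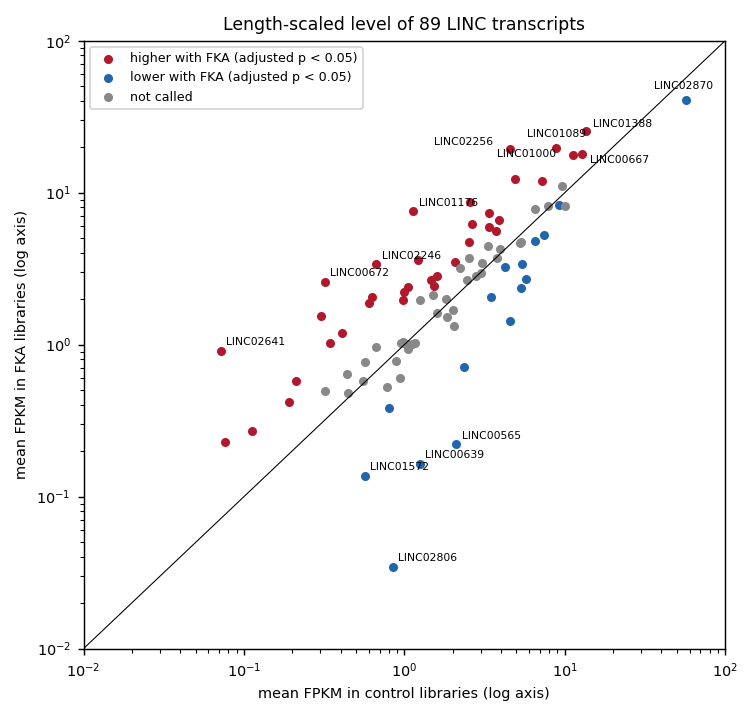
Mean deposited FPKM in the 3 FKA libraries (y axis, log scale) against the 3 control libraries (x axis, log scale) for the 89 LINC transcripts, with the line of equal level. FPKM are scaled to library totals, while the calls come from a fit with TMM factors. Called transcripts lie at low and at high levels, among them LINC02940 at 0.228 FPKM with FKA and 0.0760 FPKM in controls and LINC02870 at 40.9 FPKM with FKA and 57.1 FPKM in controls.

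The transcripts were also counted by depth, as a description. Of 33 with a mean of at least 300 counts, 17 were higher and 7 lower, of 30 with 100 to 300 counts 8 were higher and 5 lower, and of 26 with 50 to 100 counts 10 were higher and 4 lower. Over all tested genes, at any depth, 29.3% were called higher and 30.5% lower. Shares of all genes within each range of depth were not counted. The median coefficient of variation between replicates was 16.5% in FKA libraries and 15.8% in controls for the LINC transcripts, while for all tested genes it was 10.4% in FKA libraries and 12.8% in controls. These sets were not matched for depth. The median of the mean counts was 191 for the LINC transcripts and 1190 for genes outside the name classes below, at the same minimum. Whether the spread differs at equal depth was not tested. FKA library 3 was the lowest of its group for 45 of the 89 transcripts, and FKA library 2 the highest for 42. The same minimum of 50 counts was applied to other name classes. Antisense transcripts (names ending in -AS and a digit, 208 genes) were higher in 41.3% and lower in 21.2%, and divergent transcripts (names ending in -DT, 73 genes) in 41.1% and 16.4%. Host genes of small RNAs (41 genes) were higher in 24.4% and lower in 46.3%, and the 10992 genes of no such class in 29.1% and 33.5%. These shares are given as a description, without a test of their difference.

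By position in RefSeq, 87 of the 89 could be placed by name, on 21 chromosomes, and 14 of these (16.1%) overlapped the span of a coding gene, although the symbol stands for long intergenic RNA. Of the 14, 4 were called higher, 1 lower and 9 not called, and of the other 73, 30 were higher, 15 lower and 28 not called. In all, 3 symbols now belong to coding entries: LINC00672, LINC00444 (a synonym of SUCLA2) and LINC02804 (a synonym of GPR89B). In GENCODE 29 annotation, 8 of 82 compared transcripts began within 1000 bases of a coding gene's start on the other strand. The spans of 7 of the 82 overlapped that of a coding gene on the same strand, LINC01176 and LINC01089 among them. Near-identical stretches, of at least 200 bases at 98% identity, were found in transcripts of other genes for 15 of 84 transcripts checked, of which 5 were called higher, 2 lower and 8 not called. Over all tested genes, 29.3% were called higher and 30.5% lower, and no difference between these subsets was tested.

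LINC transcripts and the coding genes beside them had the same sign of difference about as often as opposite signs. Of 119 pairs of a LINC transcript and a flanking coding gene in which both were tested, 59 (49.6%) had the same sign, and 53.2% of 8090 pairs of adjacent coding genes did. The pairs were not formed alike. Coding genes that overlapped a LINC transcript were left out, while coding pairs followed the order of start and could overlap. Where both genes of a pair were called, the direction was shared in 21 of 41 pairs (51.2%), against 56.8% of 3043 coding pairs. Across the 119 pairs Spearman's rho between the log2 fold changes was -0.04, a description in which pairs share libraries and some share a gene. Beside LINC transcripts that rose, 12 flanking genes were called higher, 16 lower and 21 not called, and beside those that fell, 4 were higher, 9 lower and 7 not called. Over all tested genes, 29.3% were called higher and 30.5% lower, and the difference between these neighbour sets was not tested. Pairs called in opposite directions included LINC01003 with XRCC2, LINC02806 with NBPF11, LINC02641 with BUB3 and LINC02910 with CDH26, described above, and a pair moving together was LINC02019 with DOCK3, a guanine nucleotide exchange factor gene (log2 fold changes 1.17 and 4.18).

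**Figure D4:**
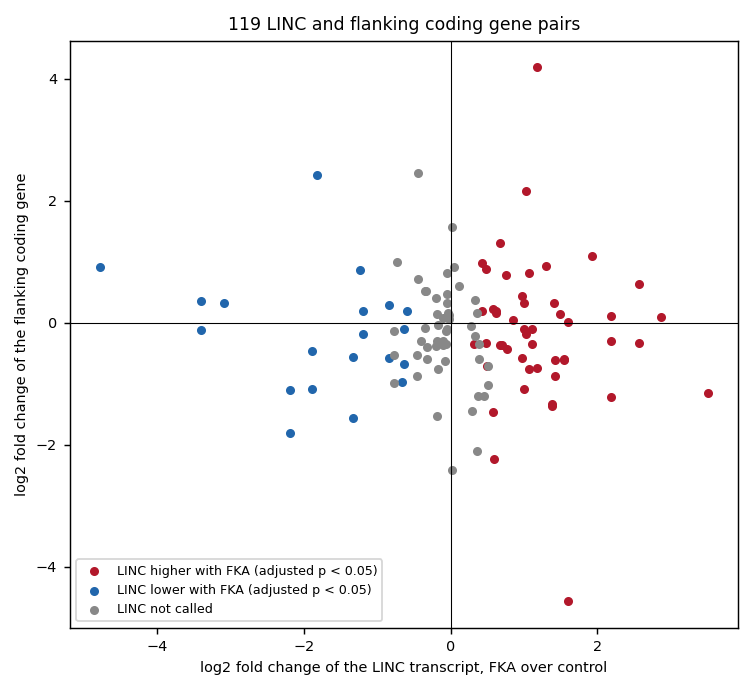
Log2 fold change (FKA over control) of the flanking coding gene (y axis) against that of the LINC transcript (x axis) for 119 pairs, coloured by the call of the LINC transcript. The points fall in all 4 quadrants, with 59 of the 119 pairs of the same sign.

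RefSeq start windows were at hand for 60 of the 89 transcripts and for 27305 genes in all. The median GC content was 58.8% for the LINC windows and 58.3% for all, and the median ratio of observed to expected CpG was 0.625 for the LINC windows and 0.580 for all. Among the LINC windows, that ratio had a median of 0.765 in 22 transcripts that rose, 0.235 in 10 that fell and 0.641 in 28 not called. CCAAT, searched on both strands, was in 14 of the 22 windows of rising transcripts (63.6%), 5 of the 10 of falling ones (50%) and 11 of the 28 others (39.3%), against 35.7% of all windows. GGGCGG was in 59.1%, 20% and 50% of these 3 sets, against 44.6% of all. TATAAA was in 15% of the 60 LINC windows, against 12% of all, CACGTG in 6.67% against 7.43%, TGACNNNGC in 15% against 13.6% and CCGGAAG in 15% against 10.7%. In the same 3 sets, rising, falling and not called, TATAAA was in 9.09%, 20% and 17.9%, and CACGTG in 9.09%, 0% and 7.14%. TGACNNNGC was in 4.55%, 20% and 21.4%, and CCGGAAG in 22.7%, 20% and 7.14%. The E2F words TTTCGCGC and TTTGGCGC were in 0 and 1 of the 60 windows, against 0.546% and 0.659% of all. TGACNNNGC, with its 3 free positions, may overlap another word. A match describes the letters of the window and not a bound site.

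Genes of the machinery that ends or degrades non-coding transcripts moved in both directions. Of 41 listed genes, all tested, 6 were called higher, 14 lower and 21 not called, where 29.3% of all tested genes were higher and 30.5% lower, and the median log2 fold change of the list was -0.12. The RNA exosome, a 3′ to 5′ exonuclease complex, had 6 of 13 genes lower and 7 not called. EXOSC5, a subunit of its ring, had 9.94, 3.91 and 9.41 CPM with FKA, against 37.5, 27.6 and 28.6 CPM in controls (log2 fold change -2.01 ± 0.31, edgeR adjusted p = 0.000556). EXOSC8 fell to 50.3, 39.7 and 44.9 CPM with FKA, against 137, 177 and 169 CPM in controls (log2 fold change -1.84 ± 0.13, edgeR adjusted p = 1.01e-05). The ring subunits EXOSC9, EXOSC4 and EXOSC7 (log2 fold changes -1.21, -0.98 and -0.61) and the cap subunit EXOSC2 (-1.01) fell as well. The catalytic subunits DIS3 and EXOSC10 were not called, at -0.28 ± 0.12 and -0.12 ± 0.08, although DIS3 was called lower once the batch entered the fit as a block, at an edgeR adjusted p of 0.0454.

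The adaptors NEXT and PAXT, which hand nuclear transcripts to the exosome, and the poly(A) polymerases listed with them had 4 of 8 genes higher and 3 lower. The helicase MTREX, ZCCHC8 and RBM7 fell (log2 fold changes -0.67, -0.77 and -0.30), and these 3 make up NEXT. ZFC3H1, the scaffold of PAXT, had 269, 277 and 258 CPM with FKA, against 200, 170 and 154 CPM in controls (log2 fold change 0.62 ± 0.11, edgeR adjusted p = 0.00126), and ZC3H3, TENT4A and TENT4B rose by 0.59, 0.53 and 0.58 on the same scale. Of the 14 Integrator genes, 4 were lower (INTS13, INTS2, INTS12 and INTS7), INTS8 was higher (log2 fold change 0.65 ± 0.15) and 9 were not called, among them INTS4, which was called higher with the block (edgeR adjusted p = 0.0342). The cap-binding list had NCBP1 lower (-0.48) and 3 of 4 not called, and of the exonucleases XRN1 rose (0.33) and XRN2 was not called. Without FKA libraries 2 and 3 the list had 3 genes higher and 9 lower, and with library totals in place of TMM factors 10 were higher and 10 lower. Whether these genes bear on the level of the LINC transcripts was not tested.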

How the data were processed

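RNA sequencing of 6 MV4;11 libraries, 3 with FKA and 3 controls, was grouped by the treatment labels. The authors deposited whole-number read counts per gene and FPKM values. GRCm38 and mm10, mouse build names, appear in the submitters' processing notes, while the symbols are human, so no coordinates of the authors' files are given. The aligner, counter, annotation and strand setting are those of the authors and not given in the sources used here. Deposited FPKM equalled the count over column total and 1 length per gene (largest relative deviation 6.9e-07), and those lengths had a median of 3123 bases in the 89 transcripts.

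Counts were tested in R 4.3.3 with edgeR 4.0.16 (filterByExpr, TMM factors, quasi-likelihood test, Benjamini-Hochberg adjustment over 13531 genes, threshold 0.05). CPM are TMM-scaled, ± after a log2 fold change is its standard error, and the biological coefficient of variation was 15.4%. No library was a copy of another, with a chi-square of 21.7 to 66.3 per degree of freedom between replicates. Within batches 1 to 3, deviations from the group means correlated by 0.06, 0.36 and -0.08 between the FKA and the control library. Batch numbers are taken from the labels, and a fit with the batch as a block was run beside the fit without it. Other alternatives were DESeq2 1.42.0, RLE and upper-quartile factors, library totals, other filters and minimum counts, limma 3.58.1 on log2 FPKM with a pseudocount of 1 or 0.1, and leaving out libraries. The edgeR script was tested on simulated data.

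Transcripts named in full are the 12 largest called rises and falls, the 10 most abundant by FPKM, the 5 most abundant not called, those at the limit of 50 counts and the coding neighbours. LINC02019 with DOCK3, and individual turnover and marker genes, were named after their values were seen. The transcripts, lists and tests were chosen with earlier results of these data known. Names, neighbours and start windows came from RefSeq (GRCh38.p14), copies from BLAST+ 2.17.0 against GENCODE 29 transcripts. No sequence was printed for transcripts without a window in that table.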

Additional observations from a re-analysis of the deposited data

How the results depend on the processing

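With the replicate block (the batch of the labels), 36 LINC transcripts were higher and 18 lower, the 51 calls were kept and LINC00869, LINC00963 and LINC01521 were added, and 7 turnover genes were higher and 15 lower, so the pairing changed no call to its opposite. Without any 1 library, 28 to 34 LINC transcripts were higher and 11 to 18 lower, and 38 of the 51 called ones were kept each time. Their median log2 fold change then ran from 0.049 (without FKA replicate 2) to 0.28 (without FKA replicate 3), against 0.11 with all libraries. That median was 0.18 with upper-quartile factors, 0.26 with library totals, 0.18 and 0.28 with limma on log2 FPKM at a pseudocount of 1 and 0.1, and 0.29 over transcripts with a mean of at least 20 counts, where 25 were lower. Library totals gave 10 lower LINC transcripts, and 10 higher and 10 lower turnover genes. Leaving out FKA replicates 2 and 3 together gave 2020 higher and 2599 lower genes over all, 17 higher LINC transcripts, a LINC median of 0.22, and 3 higher and 9 lower turnover genes, and 27 of the 51 called LINC transcripts were kept. A single FKA library then stands for its group, which lowers the number of calls by construction. No called LINC transcript changed sign under any of the 16 settings that refit the genes. Among uncalled ones, LINC00888 ran from -0.071 (without control replicate 1) to 0.24 and LINC01138 from -0.10 (without FKA replicate 2) to 0.16 when a library was left out, LINC01138 was at -0.025 without FKA replicates 2 and 3, and LINC00997 was at 0.051 with library totals and at 0.046 and 0.052 with limma at a pseudocount of 1 and 0.1. For the other shifts the cause was not tested. Precision is limited by 3 libraries a group and, for the scarcest transcripts, by low counts per library.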
